A study of Arabidopsis thaliana with 8 samples.

Results

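Cytochromes b561 are membrane proteins that carry electrons across a membrane between haem groups, commonly taking them from ascorbate. In plants a set of them is fused to a DOMON domain, an extracellular haem- or sugar-binding fold, and several such proteins of the plasma membrane are known in Arabidopsis as ascorbate-dependent reductases of ferric iron. AIR12 is a DOMON protein without the b561 part, held on the outer face of the plasma membrane by a lipid anchor, first found as a transcript induced by auxin in root cultures. The genes described here are AT4G12980 and 5 related DOMON cytochrome b561 genes (AT3G25290, AT2G04850, AT4G17280, AT5G47530 and AT5G35735), with AIR12 (AT3G07390), 7 genes in all. They were chosen by gene identifier, with earlier results of the same comparison known, so their values describe them and were not tested anew. Of the 7 genes, 3 had a row among the 2958 genes of the authors' deposited table and 4 were not listed.

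The study introduced the Arabidopsis transcription factor DIV1, a MYB-type protein, into leaf cells by TARGET, an assay that reads the transcripts of cells after a plasmid encoding a factor has been taken up. The tested libraries are 4 labelled div1, and they were set against 4 labelled ev, an abbreviation that the labels do not expand. All 8 came from protoplasts, wall-less cells released by enzyme from rosette leaves of Col-0 plants 4 weeks old, which received plasmid with polyethylene glycol and were kept overnight, so both groups share digestion and transfection. Neither the promoter that drives DIV1 nor the share of cells that took up plasmid is stated in the sources used here. The deposited table holds only genes with an adjusted p under 0.05 and no value per library, so values by sample, the spread between replicates and the depth of each library cannot be shown. The only measure of error is the standard error (SE) that the authors give for each fold change.

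The recovered number of genes the authors tested was 18010, and 16.4% of them were called, 9.14% with more and 7.28% with less transcript in div1. The authors' deposited table puts DIV1 (AT5G58900) itself at 7.61 (SE 0.88), as a log2 fold change, and since the table does not name its numerator, this value sets the direction used here, positive meaning higher in div1. The mesophyll marker list (4 genes) and the lists of guard cell, epidermis and vascular markers (11 genes) had 0 called members, and a table of called genes alone cannot show whether such markers were present. In bulk RNA, fewer cells of a type and less RNA per cell cannot be told apart.

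The annotation bears out the family name in part. All 7 genes are annotated with a DOMON domain and 6 of 7 with a cytochrome b561 domain, AIR12 being the exception. The product name is auxin-responsive family protein for 6 of 7, and auxin-induced in root cultures-like protein for AIR12. That name comes from the annotation, and no auxin was among the treatments the labels describe. AIR12 has a single annotated exon and a coding sequence of 822 bases, while the other genes have 2 to 4 exons and coding sequences of 1182 to 1215 bases.

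The 3 called genes did not move together. AT4G12980 was far higher in div1 libraries, AT5G35735 was slightly higher, and AIR12 was lower. The share called, 3 of 7, stands beside 16.4% of all genes tested, and nothing is read from it since the genes were chosen with this comparison known. The plot of fold changes by gene shows that the 95% intervals of AT4G12980 and AT5G35735 do not overlap. That of AIR12 lies apart from both, which its listing in the opposite direction already fixes, since every listed interval excludes no change.

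**Figure D1:**
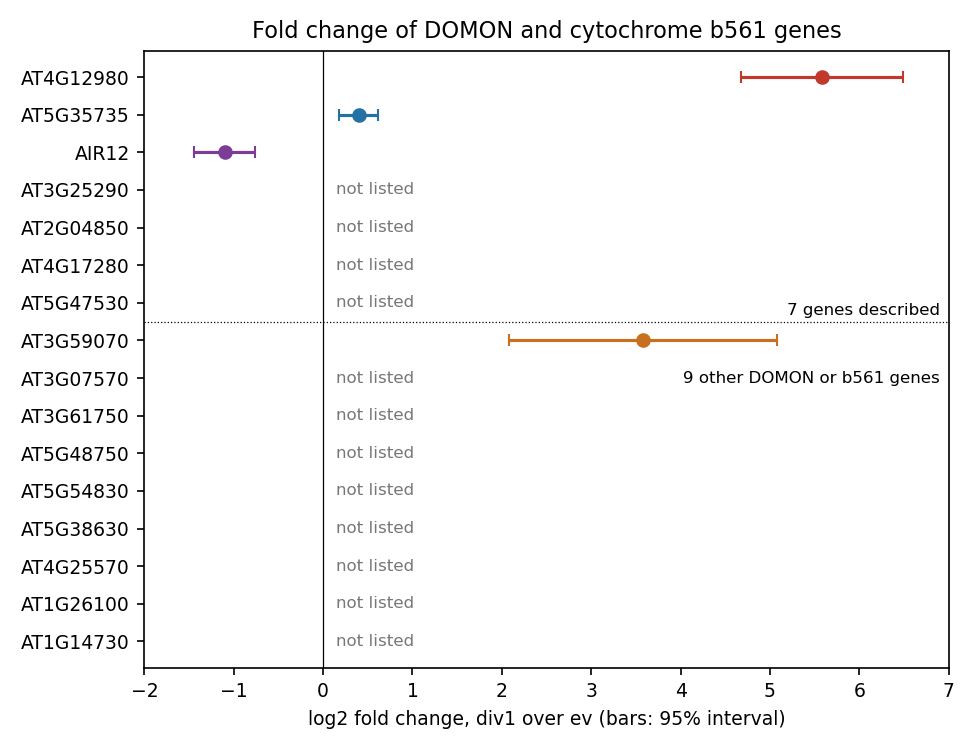
Log2 fold change of div1 over ev libraries (horizontal axis) for the 7 genes described, above the dotted line, and 9 other DOMON or cytochrome b561 genes below it. Points are the authors' deposited values and bars the 95% interval from the deposited SE; AT4G12980 stands at 5.58, AT5G35735 at 0.40, AIR12 at -1.10 and AT3G59070 at 3.58, and 12 genes were not listed.

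AT4G12980 lies on chromosome 4, 7589247 to 7591259 on the minus strand (TAIR10.1), with 3 exons, and overlaps no other annotated gene. Its mean over all 8 libraries was 829 normalized counts in the authors' deposited table. From that mean and the fold change, its estimated group means were 1624 normalized counts in div1 libraries and 33.9 in ev libraries. The transcript was thus rare in ev protoplasts. Its log2 fold change in the authors' deposited table was 5.58 (SE 0.46, 95% interval 4.67 to 6.49, adjusted p 1.7e-30), which is 47.9-fold with an interval of 25.5 to 90.0. Of 1006 other listed genes with a mean within 2-fold of its own, 2 had a larger log2 fold change. By fold change it ranked 17 among the 1646 genes called higher, and by adjusted p it ranked 33 among all 2958 genes. Its SE is more than 2 times the median of 0.189 over the table, so the size of the increase is fixed only to within the interval given.

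AT5G35735 lies on chromosome 5, 13900695 to 13903218 on the minus strand (TAIR10.1), with 2 exons, and overlaps no other annotated gene. It was an abundant transcript, with a mean of 46104 normalized counts in the authors' deposited table, rank 24 of 2958. The estimated group means were 52394 normalized counts in div1 libraries and 39813 in ev libraries. Its log2 fold change in the authors' deposited table was 0.40 (SE 0.11, 95% interval 0.18 to 0.61, adjusted p 0.0034), an increase of 31.6%. That is among the smallest increases listed, rank 1512 of 1646 by size, against a median of 0.81 over the genes called higher.

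AIR12 lies on chromosome 3, 2365301 to 2366496 on the plus strand (TAIR10.1), and overlaps no other annotated gene. Its mean was 28600 normalized counts in the authors' deposited table, rank 67 of 2958. Its estimated group means were 18182 normalized counts in div1 libraries and 39019 in ev libraries. The log2 fold change in the authors' deposited table was -1.10 (SE 0.17, 95% interval -1.44 to -0.76, adjusted p 1.09e-08), so its estimated level in div1 was 0.466 of that in ev. It ranked 322 among the 1312 genes called lower by size, whose median was -0.76 on the log2 scale.

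**Figure D2:**
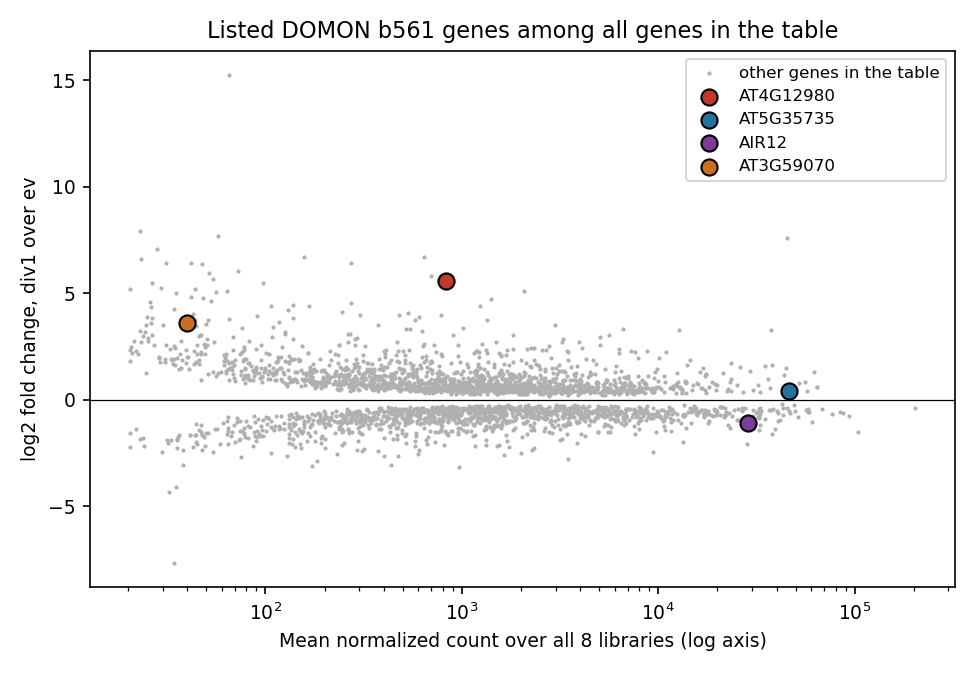
Each point is a gene of the authors' deposited table, placed by its mean normalized count over all 8 libraries (horizontal, log axis) and its log2 fold change of div1 over ev (vertical). AT4G12980 sits at a mean of 829 and 5.58, whereas AT5G35735 and AIR12 lie at the abundant end, with means of 46104 and 28600, close to and below the zero line.

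Levels of different genes were compared per kilobase of transcript. In div1 libraries the estimated level per kilobase was 30515 normalized counts for AT5G35735, 15202 for AIR12 and 906 for AT4G12980. In ev libraries it was 23188 normalized counts per kilobase for AT5G35735, 32625 for AIR12 and 18.9 for AT4G12980. The order of the most abundant pair per kilobase thus differed between the groups, AT5G35735 standing at 2.01 times AIR12 in div1 and at 0.711 times in ev. Before division by length, AT5G35735 stood above AIR12 in both groups. Its estimated mean was 52394 against 18182 normalized counts in div1 and 39813 against 39019 in ev. The order in ev therefore rests on the annotated transcript lengths, 1717 bases for AT5G35735 and 1196 for AIR12. Shifting each fold change by 1 SE moved AIR12 between 13983 and 16475 per kilobase in div1 and between 31351 and 33843 in ev, and AT5G35735 between 29510 and 31510 in div1 and between 22193 and 24193 in ev. These ranges cover the fold change only, since the table gives no error for a mean. Despite its large fold change, AT4G12980 made up 1.94% of the summed level of the 3 genes per kilobase in div1 libraries and 0.0339% in ev libraries. The summed level per kilobase was 46623 normalized counts in div1 and 55831 in ev, a ratio of 0.835.

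**Figure D3:**
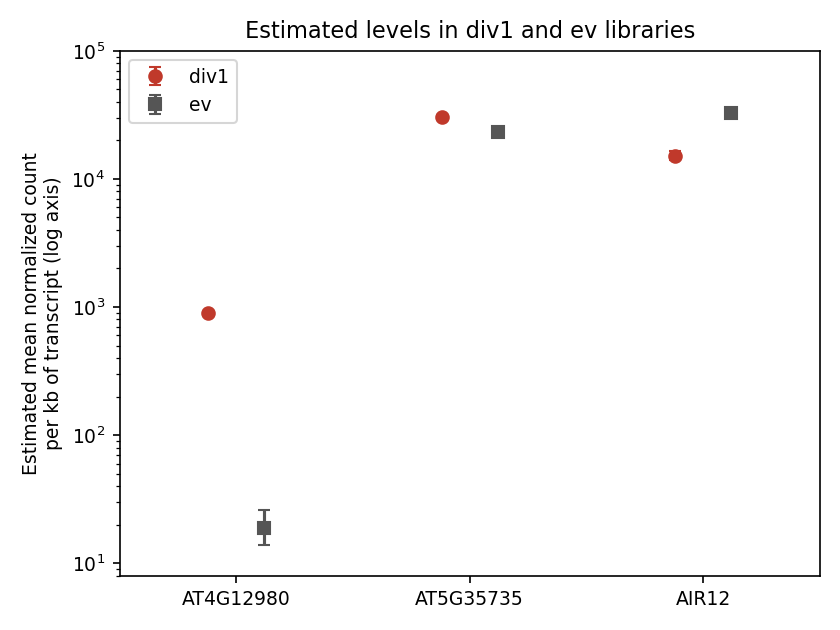
Estimated mean normalized count per kilobase of transcript (log axis) of the 3 listed genes in div1 libraries (red circles) and ev libraries (grey squares). Bars show the level when the fold change is shifted by 1 SE either way and are hidden by the point where they are small; AT4G12980 stands at 906 in div1 and 18.9 in ev, AT5G35735 at 30515 in div1 and 23188 in ev, and AIR12 at 15202 in div1 and 32625 in ev.

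The 4 genes without a row were AT3G25290, AT2G04850, AT4G17280 and AT5G47530, all with both domains annotated. Whether they were untested, for instance for low counts, or tested and above the threshold cannot be told apart from a table of called genes. The library kit does not mark strand, so reads in overlaps cannot be assigned by strand. AT4G17280 overlaps AT4G17270 and AT4G06685, AT5G47530 overlaps AT5G47540, and AT2G04850 overlaps AT2G04852.

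Coding sequences were compared to see which genes are closest kin. Identity was taken between the aligned ends of the coding sequences, so bases that overhang at either end are left out. The closest relative of AT4G12980 was AT3G25290, with 75.1% identical bases, ahead of 56.7% for the next gene. AT3G25290 was not listed, so of this pair a single gene had a call, which does not show that the other did not change. AT4G17280 and AT5G47530 formed a second close pair at 76.0%, and neither was listed. AT5G35735 was no closer than 56.9% to any member, and AT2G04850 no closer than 48.8%. AIR12, which is shorter, was closest to AT3G25290 at 51.1%, and under a stiffer gap penalty it was closest to AT4G12980 at 54.6%, with identities between AIR12 and the members moving by up to 10.9 percentage points, so its nearest relative is not settled by this alignment. The identities between members other than AIR12 ran from 46.0% to 76.0% with a median of 54.2% over 15 pairs.

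The stretches that close kin share bear on whether reads could be split between them. The longest run of identical bases between the transcripts of any pair of the 7 genes was 33 bases, and between AT4G12980 and AT3G25290 it was 32 bases. Read length is not given in the sources used here. That shared run starts at base 781 of the AT4G12980 coding sequence and base 778 of that of AT3G25290, and is shown because it is the longest match of AT4G12980 with its closest relative.
AT4G12980 and AT3G25290: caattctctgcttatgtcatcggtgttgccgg

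The 250 bases before the annotated start of each called gene are shown because the 3 genes differ in direction, in RefSeq sequence of the TAIR10.1 build. Words searched on both strands were GATAAG and TATCCA, which factors of the DIV and MYBS type are known to read, TGTCTC, the auxin response element, and GATAA, which lies within GATAAG and was added after the data were seen. Capitals mark matches, TTATC being GATAA on the other strand.
AT4G12980, chr4:7591260-7591509, minus strand: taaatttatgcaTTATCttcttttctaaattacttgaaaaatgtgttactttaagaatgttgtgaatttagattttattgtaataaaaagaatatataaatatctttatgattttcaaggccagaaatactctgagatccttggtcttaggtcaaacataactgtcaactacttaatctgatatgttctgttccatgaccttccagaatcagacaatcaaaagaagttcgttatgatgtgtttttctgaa
AT5G35735, chr5:13903219-13903468, minus strand: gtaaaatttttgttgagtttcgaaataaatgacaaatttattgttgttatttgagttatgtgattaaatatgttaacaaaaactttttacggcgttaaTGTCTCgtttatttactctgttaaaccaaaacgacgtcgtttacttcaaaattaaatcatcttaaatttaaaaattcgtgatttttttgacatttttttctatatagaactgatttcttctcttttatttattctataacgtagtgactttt
AIR12, chr3:2365051-2365300, plus strand: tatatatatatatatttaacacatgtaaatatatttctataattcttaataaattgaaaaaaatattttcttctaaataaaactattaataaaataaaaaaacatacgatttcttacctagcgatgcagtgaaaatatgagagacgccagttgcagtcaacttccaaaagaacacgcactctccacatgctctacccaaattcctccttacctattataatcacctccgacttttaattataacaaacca

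In these 250 bases AT4G12980 holds GATAA, beginning 238 bases before the start, AT5G35735 holds TGTCTC, beginning 152 bases before the start, and AIR12 holds none of the 4 words. In windows of 300 bases, from 250 before to 50 after the start, GATAAG occurred in 0 of the 7 genes, against 14.6% of 27443 protein-coding genes. TATCCA occurred in 1 of the 7, AT2G04850, against 16.1% of all such windows, and TGTCTC in 1 of the 7, against 14.2%. The short word GATAA occurred in 4 of the 7 genes and in 60.8% of all windows. A match in these windows is a description of letters, and the windows say nothing of sites farther away.

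Among the 9 other DOMON or cytochrome b561 genes examined, 1 was called higher, 0 lower, and 8 were not listed. The called gene, AT3G59070, carries both domains, and the authors' deposited table gives its log2 fold change as 3.58 (SE 0.76, 95% interval 2.09 to 5.08, adjusted p 5.97e-05). Its mean was 40.0 normalized counts in the authors' deposited table, with estimated means of 73.8 in div1 libraries and 6.16 in ev libraries, so it was a rare transcript in both groups. It overlaps AT3G59068, annotated on the opposite strand. Its closest relative was AT5G48750, at 76.9% identical bases between the aligned ends of the coding sequences. That of AT5G48750 has 768 bases against 1401 for AT3G59070, so the share leaves out part of the longer one. AT5G48750 was not listed, nor were the 4 genes with a b561 domain alone. Among these are CYB-1 (AT5G38630) and ACYB-2 (AT4G25570), which encode cytochromes b561 without DOMON. Over all 16 family genes 3 were called higher and 1 lower, 18.8% and 6.25%, beside 9.14% and 7.28% of all genes tested, a count that includes the 7 genes, which were chosen with this comparison known, so nothing is read from it.

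The genes most like AT4G12980 in fold change and mean, with each axis scaled by its SD over the 2958 genes, were SVL2, SWEET8, AT5G49440, PUP1 and GAT1_2.1. SVL2, of the SHV3-like glycerophosphodiester phosphodiesterase-like proteins, was the nearest at a distance of 0.206 SD, and its estimated means were 1364 normalized counts in div1 and 24.3 in ev. The others lay at 0.677 to 0.919 SD, and the authors' deposited table gives log2 fold changes of 5.09 (SE 0.65) for SWEET8, a sugar transporter gene, and 4.40 (SE 0.29) for GAT1_2.1. Among genes with a mean of at least 50, those next above AT4G12980 in fold change were sks13, SVL2 and AT2G33160, and those next below were STP14, AT1G76110 and SWEET8. Of these neighbours in rank, sks13, AT2G33160, STP14 and AT1G76110 had means of 51.6 to 96.7 normalized counts and SE from 0.81 to 1.71 in the authors' deposited table, so their folds were less firmly fixed than that of AT4G12980. GAT1_2.1 and AT2G33160 overlap other annotated genes. The likeness rests on a single comparison and shared libraries.

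The genes annotated near the 3 called members stand beside 16.4% called over all genes tested, and nothing is read from counts this small, which can include untested genes. Within 10 kb of AT4G12980, 0 of 7 annotated neighbours were listed, among them STOMAGEN (AT4G12970), and 0 of 9 near AT5G35735. Near AIR12, 1 of 7 was listed, PUB9 (AT3G07360), a U-box protein gene, for which the authors' deposited table has -0.88 (SE 0.18) as log2 fold change.

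Since the family carries auxin in its name, genes of the auxin response were read beside it. Of 29 Aux/IAA genes, which encode repressors of auxin-responsive transcription, 1 was called higher, 3 lower and 25 were not listed. On the log2 scale, the authors' deposited table lists IAA7 at 1.26 (SE 0.44), IAA8 at -0.64 (SE 0.24), IAA11 at -1.68 (SE 0.38) and IAA19 at -1.63 (SE 0.56). IAA11 overlaps AT4G28650. At an adjusted p under 0.01 the Aux/IAA calls fell to 0 higher and 1 lower, IAA11, while the 3 GH3 calls given next remained. Of 11 GH3 and LBD genes, 0 were higher, 3 lower and 8 not listed. The 3 were GH3 genes, which encode enzymes that join auxin to amino acids, and the authors' deposited table lists BRU6 at -2.46 (SE 0.60), DFL1 at -0.99 (SE 0.21) and GH3.17 at -1.57 (SE 0.36), all log2 fold changes. At a fold of at least 2, the lower calls fell to 2 Aux/IAA genes and 2 GH3 genes, IAA8 and DFL1 being lost. No other AIR gene of the 4 examined (AIR1, AT4G12545, AIR3 and AIR9) was listed. In all, 1 of 44 auxin response genes was higher (2.27%) and 6 were lower (13.6%), beside 9.14% and 7.28% of all genes tested. The 44 can include genes that the authors did not test, so the shares do not rest on like totals. The lists were also chosen with earlier results of these data known, so nothing is read from these shares.

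Ascorbate, the usual electron donor of cytochromes b561, is made and regenerated by enzymes whose genes were read next. Of 11 genes of ascorbate synthesis 2 were higher, 0 lower and 9 not listed. The authors' deposited table lists VTC5, a GDP-L-galactose phosphorylase of the committed step, at 1.02 (SE 0.20) and GME, the GDP-mannose epimerase, at 0.39 (SE 0.12), in log2 units. Of 19 genes of ascorbate use and recycling, 1 was higher and 1 lower. In log2 units, the authors' deposited table lists MDAR1, which regenerates ascorbate from its radical, at 0.35 (SE 0.13) and the ascorbate oxidase gene AT4G39830 at -0.69 (SE 0.25). The shares called higher were 18.2% for synthesis and 5.26% for use and recycling, beside 9.14% of all genes tested, and the shares called lower were 0% and 5.26%, beside 7.28%. With 2 genes or fewer behind each share, nothing is read from them, and at an adjusted p under 0.01 VTC5 alone remained of the 4 calls.

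Genes of other redox enzyme families were read in the same way, without regard to where in the cell the proteins lie. Of 8 FRO ferric reductase genes, 0 were listed. Of 10 RBOH genes, which encode NADPH oxidases that make superoxide outside the cell, 0 were higher and 2 lower. The authors' deposited table has AT1G19230 at -0.79 (SE 0.20) and RBOH F (AT1G64060) at -0.40 (SE 0.15), in log2 units. AT1G19230 overlaps AT1G19240, and at an adjusted p under 0.01 it was the 1 RBOH call that remained. Of 3 genes of FQR-type quinone reductases, 1 was higher, AT4G36750, which the authors' deposited table has at 0.37 (SE 0.08) in log2 units. The shares called were 20.0% lower for RBOH genes and 33.3% higher for FQR genes, beside 7.28% and 9.14% of all genes tested. At a fold of at least 2, neither the RBOH calls nor the FQR call remained. With 2 genes or fewer behind each share, nothing is read from them. The plot of list shares sets these counts beside the shares over all genes.

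**Figure D4:**
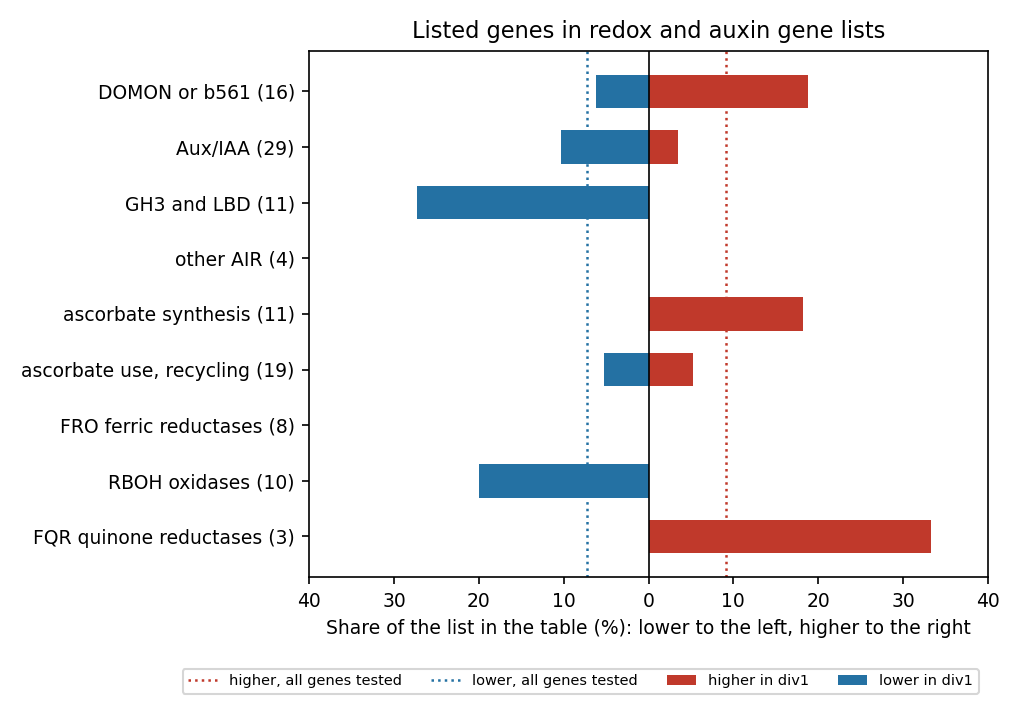
Share of each gene list (percent, number of genes in brackets) that the authors' deposited table lists as higher in div1 (red, to the right) or lower in div1 (blue, to the left). Dotted lines mark the shares over all 18010 genes tested, 9.14% higher and 7.28% lower, whereas the lists can include untested genes. Each bar stands for 0 to 3 genes, so short lists give coarse shares.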

How the data were processed

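Poly(A) RNA of 8 libraries (4 div1, 4 ev) was sequenced after a 90 min leaf digestion and transfection, per the labels' protocols. Reads went through fastp 0.21.0, HISAT2 and featureCounts 2.0.1 and the counts through DESeq2, on the TAIR10 build, per the submitters' processing notes, without settings in the sources used here. The deposited table gives, per the file headers, the normalized count of each gene as a mean of all libraries (a signal), a log2 fold change with its SE, a score (the test statistic), and a p-value with an adjusted p-value. Its 2958 genes have adjusted p up to 0.0499. Whether replicates are separate plants or transfections is not in the labels, so the authors' p-values may measure technical spread.

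Depth per library is unknown. No test of samples was run. The number of genes tested was taken as the largest adjusted p times rank over p. Group means were solved from the overall mean and fold change, with 4 libraries in each group. Intervals are 1.96 SE either way. Annotation and sequence came from the RefSeq TAIR10.1 assembly, to which 2957 identifiers matched and 1 did not; the deposited table holds no coordinates. Coding sequences (longest per gene) were aligned globally with free end gaps (NUC.4.4, gap open 10, extend 0.5), which replaced a planned protein alignment. Identity counts inner gaps and leaves out overhanging ends. The genes and lists were chosen with earlier results of these data known. The lists are other DOMON or b561 genes, other AIR, Aux/IAA, GH3 and LBD, ascorbate synthesis, ascorbate use and recycling, FRO, RBOH and FQR genes, and cell type markers. Named are the members, listed genes of the lists, the nearest genes in fold change (mean of at least 50) or in fold change and mean, and listed genes within 10 kb of a listed family gene. Functions were tested on simulated data. Alternatives were an adjusted p under 0.01, at least 2-fold, a mean of at least 50, fold changes shifted by 1 SE, other gap penalties and shorter promoter windows. Python 3.11.15, numpy 2.4.6, pandas 2.3.3, Biopython 1.88 and matplotlib 3.10.9 were used.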

Additional observations from a re-analysis of the deposited data

How the results depend on the processing

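The 3 called members kept their calls at an adjusted p under 0.01 and at a mean of at least 50. At a fold of at least 2, the members called higher numbered 1 instead of 2, AT5G35735 being lost, and AIR12 stayed as the 1 lower call. By fold change AT4G12980 ranked 17 over all genes and 11 among genes with a mean of at least 50. With the fold change 1 SE lower and 1 SE higher, the estimated means of AT4G12980 were 1612 and 1633 in div1 and 46.5 and 24.7 in ev. Those of AT5G35735 were 50668 and 54103 in div1 and 41539 and 38105 in ev. Those of AIR12 were 16724 and 19704 in div1 and 40476 and 37496 in ev, all in normalized counts. Of 28 list and direction counts, 6 moved by over 1.5 times at an adjusted p under 0.01 and 5 at a fold of at least 2. A mean of at least 50 moved 1, where AT3G59070 was lost. Each of these counts became smaller, as stricter limits can only remove calls. Most of the 28 were 0 at the main setting and could not move, so the unmoved counts are no sign of stability. The median identity between members other than AIR12 was 55.9% under the stiffer gap penalty, against 54.2%, and within the 250 bases before the start GATAA was found in 3 members instead of 4. No paired analysis was possible because the table holds no values per library. For the same reason leaving out a replicate, another normalization and another filter on low counts were not run. Unknown depth per library limits every value here.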
